A study of Mus musculus with 10 samples.

Results

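The genes described here are regulators that hold neocortical progenitors in division or move them towards neurons: Eomes, Pax6, Sox2, Sox9, Hes1, Notch1, Numb, Numbl, Msi1 and Msi2. They were chosen by name, with earlier results of these data known, and 8 of the 10 are among the 6147 genes of the deposited table. The other 2, Hes1 and Numb, were not analysed here. All 8 passed the filter on low values, which left 6048 genes for testing.

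The table holds RNA sequencing of whole neocortex from wild-type mice of the outbred strain CD1, with 2 libraries at each of 5 stages. The labels E12.5, E14, E15.5 and E17 give days of embryonic life, and P0 is the day of birth. All 10 libraries share one genotype and no treatment, so the comparison is of stages. Tissue was kept frozen, lysed with detergent and spun, RNA was taken from the cleared lysate, and polyadenylated RNA was made into stranded libraries. The design text calls the 2 libraries of a stage biological duplicates, without saying whether each came from 1 animal or several. Values are TPM, a share of all transcripts corrected for gene length. The gene lengths used were not given in the sources used here, so an order of levels between genes rests on unknown lengths. The length of a gene largely cancels in its own change over stages.

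In the embryonic neocortex, radial glia line the ventricle and act as stem cells, and the transcription factors Sox2, Sox9 and Pax6 mark them. Notch signalling between neighbouring cells keeps radial glia undifferentiated: a ligand on one cell makes the receptor on the next release its inner domain, which works with Rbpj in the nucleus to switch on repressors such as Hes1. Numb and its relative Numb-like are endocytic adaptors that oppose Notch, the Musashi proteins bind RNA and are known to restrain translation of Numb, and Eomes marks the intermediate progenitors that radial glia give rise to and that divide into neurons.

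Promoter sequence was read for the transcription factors Eomes, Pax6 and Sox2, which mark the progenitor types described here, from the RefSeq promoter table on GRCm38.p6. That table matched 6 of the 8 genes, and the promoters of Sox9 and Msi1 were not analysed here. Each line gives the 250 bases before an annotated start site, 5′ to 3′ on the gene's strand, which is the plus strand for all 3; for Pax6 it is the upstream-most of its start sites in that table. Capitals mark matches on either strand to 4 short motifs that were chosen after the sequences had been seen.
Eomes, chr9:118477939-118478188: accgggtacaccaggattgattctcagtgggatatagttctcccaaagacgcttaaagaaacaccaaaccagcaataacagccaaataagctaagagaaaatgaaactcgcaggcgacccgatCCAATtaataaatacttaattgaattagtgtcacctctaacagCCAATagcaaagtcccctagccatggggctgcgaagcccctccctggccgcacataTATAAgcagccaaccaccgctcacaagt
Pax6, chr2:105668646-105668895: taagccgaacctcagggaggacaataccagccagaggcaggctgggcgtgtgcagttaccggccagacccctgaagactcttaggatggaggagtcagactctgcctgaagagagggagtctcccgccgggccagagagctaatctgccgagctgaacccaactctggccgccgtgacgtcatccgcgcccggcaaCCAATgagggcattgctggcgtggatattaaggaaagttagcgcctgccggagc
Sox2, chr3:34649745-34649994: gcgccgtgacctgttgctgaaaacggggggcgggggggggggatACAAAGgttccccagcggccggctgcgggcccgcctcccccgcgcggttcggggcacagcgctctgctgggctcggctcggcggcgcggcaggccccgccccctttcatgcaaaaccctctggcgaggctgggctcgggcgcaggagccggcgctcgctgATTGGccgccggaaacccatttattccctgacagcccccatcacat
The first motif searched was TGGGAA, the core read by the Notch partner Rbpj, on both strands. The second was ACAANG, a core of Sox factors, again on both strands. The other two were the promoter elements CCAAT, which reads ATTGG on the other strand, and TATAA. Overlaps between motifs were allowed. Positions count backwards from the base before the start site as -1 and give the leftmost base of the match. The Eomes window holds CCAAT at -127 and -84 and TATAA at -28. A single CCAAT lies at -54 in the Pax6 window. In the Sox2 window a Sox core, ACAAAG, lies at -206 and a CCAAT box on the other strand at -46. All 3 windows hold 0 annotated exon bases of any gene in GENCODE release M21. Each ends before the start of its own gene in that release, at 118478212 for Eomes, 105668900 for Pax6 and 34650405 for Sox2. These starts are not the same bases as the RefSeq start sites used here. G and C make up 46.4% of the Eomes window, 60.8% of the Pax6 window and 72.0% of the Sox2 window. Among 27025 promoter windows of the same length, 34.5% hold a CCAAT box, 23.5% TATAA, 36.6% the Sox core and 21.5% TGGGAA, so each match is a common one. No window of the 6 matched genes holds TGGGAA, which says only that these letters are not in these windows.

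Listed genes made up between 68.9% and 71.7% of all TPM per library, and between 5990 and 6036 of them reached 1 TPM. Read numbers were not given in the sources used here. The tissue label was set beside the cortical genes Emx1 and Tbr1, whose presence cannot show whether other tissue was included. Levels of marker genes of other tissues are given below with the step from E14 to E15.5. Emx1 averaged 172.8 TPM at E12.5 and stood at 54.21 and 51.01 TPM at P0, and Tbr1 averaged 144.2 TPM at E12.5 and stood at 69.29 and 77.57 TPM at P0. Ventral forebrain genes were not analysed here. The E17 libraries differed from each other more than those of any other stage: the SD of the log2 difference between replicates over all genes tested was 0.285 at E17, against 0.176 at P0 and 0.088 to 0.108 at the other 3 stages. All 8 genes were higher in E17 replicate 1 than in replicate 2. The difference between replicates 1 and 2 across the 6048 genes went with the length of the longest annotated transcript, with a Spearman's rho of 0.50 at E17 and, with the opposite sign, -0.434 at P0. It was -0.281 at E14, -0.108 at E12.5 and 0.02 at E15.5, all given as descriptions, since genes are not replicates. Where a step of one of the 8 genes into or out of E17 is given below, its values without each E17 library follow. With 1 E17 library left out, that stage has no spread of its own, so such p-values rest on the spread of the other stages.

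From E12.5 to P0, 7 of the 8 genes fell and Numbl rose. Eomes lost most, to 4.91% of its E12.5 level, then Notch1, to 9.65%, Pax6, to 10.8%, and Sox9, to 16.7%. Musashi 2, Sox2 and Musashi 1 kept more, at 26.0%, 28.1% and 37.8%, while Numbl stood at 134%. A fall was called for 51% of all genes tested and a rise for 27.1%. For each of the 7, the P0 libraries lay entirely below those of E12.5, as for 58.4% of all genes. The F test over the 5 stages called 7 of the 8, all but Numbl, and 82.9% of all genes tested. The median change of the 8 genes was -2.23 on the log2(TPM + 1) scale and that of all genes tested -0.275, a shift of the whole table against which each change below can be read. With median-of-ratios scaling, which moves that median to -0.0069, 2282 genes were called lower and 2293 higher, in place of 3087 and 1641, and the 8 genes kept their calls. In libraries of whole tissue, fewer cells that express a gene and less RNA per cell cannot be told apart.

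**Figure D1:**
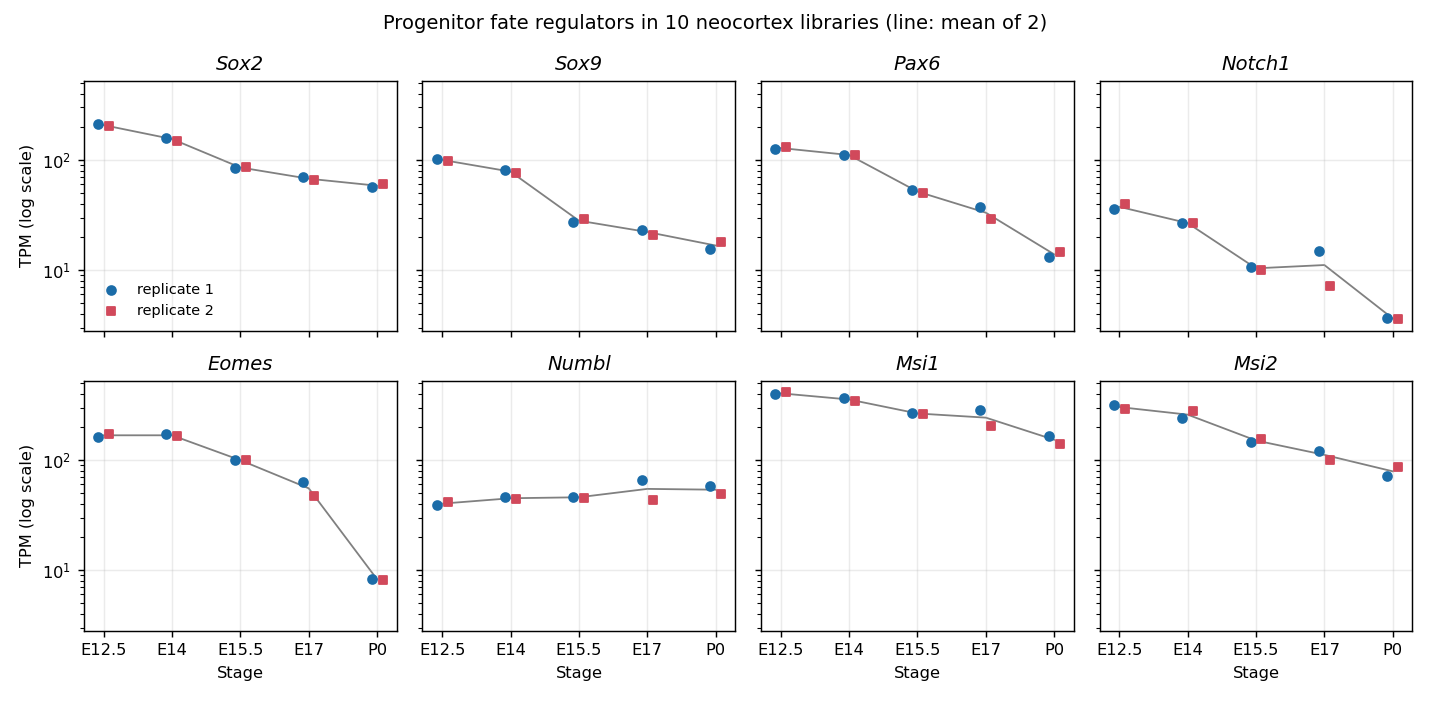
TPM (log axis) of the 8 genes at each stage, with a circle for replicate 1, a square for replicate 2 and a line through the means of 2. Numbl stays between 38.68 and 65.77 TPM while the other 7 decline, and the replicates stand furthest apart at E17 for Notch1.

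Sox2, an HMG-box factor of neural stem cells, stood at 211.5 and 203.4 TPM at E12.5, 159.8 and 150.3 at E14, 84.96 and 85.97 at E15.5, 69.82 and 65.3 at E17, and 56.61 and 60.11 at P0. Both libraries of each stage lay below both of the stage before, so the decline has no overlap at any step. It was steepest between E14 and E15.5, which held 47.0% of the whole log2 change, and flattest after E17, with 11.5%. From E12.5 to P0 the fall was 3.55-fold, with a log2 change of -1.81 (SE 0.075, limma adjusted p = 1.183e-09). Of all members it had the smallest SE. The last step was -0.21 (adjusted p = 0.04527) and lost its call under 14 of 19 alternative settings. Leaving out E17 replicate 1 made it -0.16 (adjusted p = 0.121), and leaving out E17 replicate 2 made it -0.255, which was called.

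Sox9, an HMG-box factor of the SoxE group needed for neural stem cells and later for glia, stood at 102.8 and 97.53 TPM at E12.5, 81.09 and 75.63 at E14, 27.38 and 28.79 at E15.5, 23.32 and 20.99 at E17, and 15.48 and 17.91 at P0. The libraries fall into a high set at E12.5 and E14 and a low set from E15.5 on, and the lowest value of the high set, 75.63 TPM, is far above the highest of the low set, 28.79 TPM. The step from E14 to E15.5 took 57.5% of the whole log2 change. That step was -1.45 (SE 0.099, limma adjusted p = 6.137e-07), the lowest of the 8 genes and rank 95 from the bottom among 6048. Over the whole span Sox9 fell 6.0-fold, with a log2 change of -2.52 (SE 0.099, adjusted p = 7.669e-10).

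Pax6, a paired-box and homeodomain factor of dorsal radial glia, stood at 126.3 and 130.5 TPM at E12.5, 110.9 and 111.0 at E14, 53.33 and 49.91 at E15.5, 37.41 and 28.98 at E17, and 13.1 and 14.66 at P0. No 2 neighbouring stages overlapped. Unlike the Sox factors it had large steps both after E14 and after E17: -1.09 (limma adjusted p = 1.202e-05) and -1.19 (adjusted p = 2.508e-05). The second of these became -1.01 when E17 replicate 1 was left out and -1.37 when E17 replicate 2 was, and was called both times. Its fall over the whole span was 9.25-fold, a log2 change of -3.12 (SE 0.11, adjusted p = 3.91e-10).

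Notch1, the receptor through which radial glia hold each other undifferentiated, stood at 35.52 and 39.54 TPM at E12.5, 26.73 and 26.67 at E14, 10.69 and 10.02 at E15.5, 14.98 and 7.21 at E17, and 3.69 and 3.556 at P0. The stages do not overlap except at E17, whose libraries lie on either side of those of E15.5. From E12.5 to E14 the change was -0.47 and was not called (SE 0.23, limma adjusted p = 0.223). Notch1 was called lower at 2 later steps, by 1.29 on the log2 scale after E14 (SE 0.23, adjusted p = 0.0006307) and by 1.31 after E17 (SE 0.23, adjusted p = 0.001196). The size of the second rests on the E17 libraries: with replicate 1 of that stage left out it was -0.829, and with replicate 2 left out -1.79, both called. Between these steps, E17 minus E15.5 was 0.013 (adjusted p = 0.9737), and this value rests on which library is used. It was -0.47 without E17 replicate 1 (adjusted p = 0.00275) and 0.49 without E17 replicate 2 (adjusted p = 0.000759). The fall over the whole span was 10.4-fold, a log2 change of -3.06 (SE 0.23, adjusted p = 1.706e-07). Noncoding transcripts of the opposite strand share 7.5% (0610009E02Rik) and 2.91% (Gm13568) of the exon bases of Notch1, and the use of strand in counting was not given in the sources used here.

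Numbl, which encodes Numb-like, stood at 38.68 and 41.58 TPM at E12.5, 45.63 and 44.2 at E14, 46.07 and 45.61 at E15.5, 65.77 and 43.49 at E17, and 58.08 and 49.34 at P0. Levels lay within a narrow band. Both P0 libraries lay above both of E12.5, as they did for 32.5% of all genes tested, and the E17 libraries spanned the values of every other stage but E12.5. P0 minus E12.5 was 0.41 (SE 0.15, limma adjusted p = 0.03021), and the F test gave an adjusted p of 0.1095. Leaving out E12.5 replicate 1, E12.5 replicate 2 or P0 replicate 1 ended the call, with adjusted p of 0.135, 0.0631 and 0.213. No single step was called. Without E17 replicate 2 the step into E17 was 0.51 (adjusted p = 0.000438) and the step out of it -0.29 (adjusted p = 0.0169). Without E17 replicate 1 they were -0.074 (adjusted p = 0.604) and 0.29 (adjusted p = 0.0253).

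Msi1, which encodes the RNA-binding protein Musashi 1, had the highest TPM of the 8 genes at every stage. It stood at 396.0 and 411.4 TPM at E12.5, 363.4 and 346.0 at E14, 270.1 and 259.5 at E15.5, 283.3 and 202.0 at E17, and 164.7 and 140.8 at P0. The E17 libraries lie on either side of those of E15.5, and the other neighbouring stages do not overlap. Over the whole span Msi1 fell 2.64-fold, a log2 change of -1.40 (SE 0.13, limma adjusted p = 1.419e-06). The step after E14 was -0.42 (adjusted p = 0.02017), a call lost when any 1 of the 4 E14 and E15.5 libraries was left out (adjusted p 0.0633 to 0.106). E17 minus E15.5 was -0.15 (adjusted p = 0.4462). It was -0.39 without E17 replicate 1 (adjusted p = 0.0035) and 0.098 without E17 replicate 2 (adjusted p = 0.369).

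Msi2, its paralog, stood at 315.6 and 290.1 TPM at E12.5, 238.5 and 278.3 at E14, 146.8 and 154.0 at E15.5, 121.7 and 101.0 at E17, and 70.98 and 86.78 at P0. No neighbouring stages overlapped, although the replicates of E14 and of P0 stood further apart than those of the Sox factors. The fall was 3.84-fold, a log2 change of -1.93 (SE 0.12, limma adjusted p = 3.315e-08), with the largest step, -0.77, after E14 (adjusted p = 0.0002343).

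Eomes, the T-box factor of intermediate progenitors, had another course. It stood at 163.5 and 171.9 TPM at E12.5, 171.4 and 164.0 at E14, 99.66 and 99.6 at E15.5, 63.11 and 47.53 at E17, and 8.277 and 8.202 at P0. E12.5 and E14 overlapped in full, and each later stage lay below the one before. The first step was 0.00016 (SE 0.11, limma adjusted p = 0.999). The next ones were -0.75 (adjusted p = 0.0001997), -0.85 (adjusted p = 0.0006301) and -2.59 (adjusted p = 2.535e-07). Without E17 replicate 1 the steps into and out of E17 were -1.05 and -2.39, and without E17 replicate 2 they were -0.65 and -2.79, all called. With all libraries, the last step held 61.9% of the whole log2 change and was the lowest of all 6048 genes. From E12.5 to P0 Eomes fell 20.4-fold, a log2 change of -4.19 (SE 0.11, adjusted p = 4.789e-11), rank 20 from the bottom of all genes tested. An antisense transcript, Gm33460, shares 2.84% of its exon bases.

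**Figure D2:**
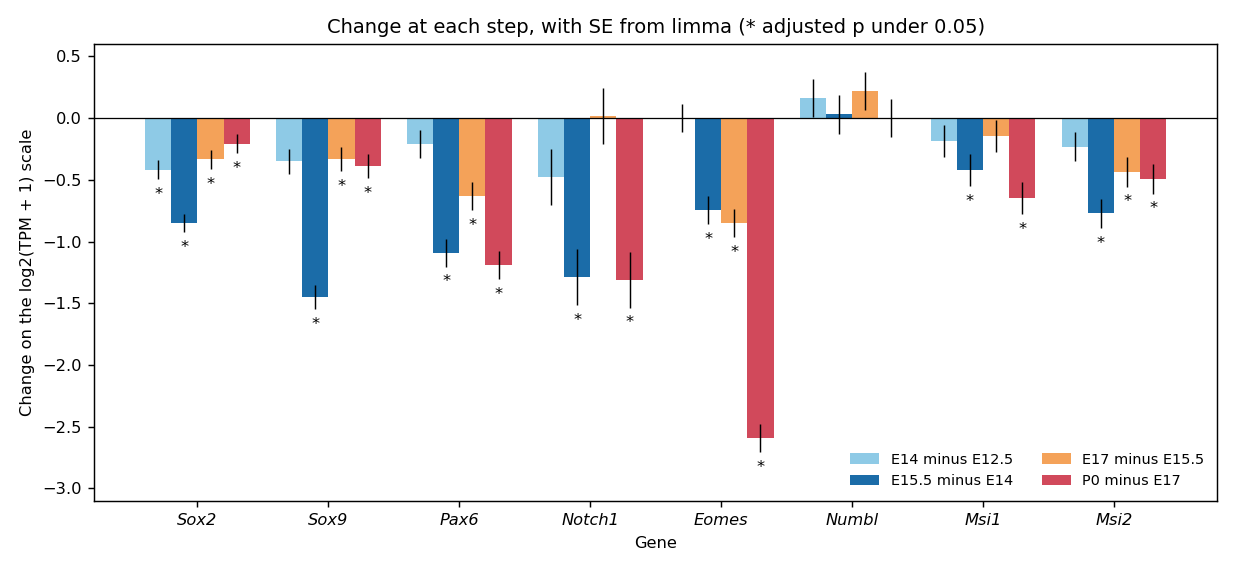
Change of each gene at each of the 4 steps on the log2(TPM + 1) scale, as bars from 0 with the SE from limma; a star marks an adjusted p under 0.05. Eomes has its longest bar after E17, Sox9 after E14, and Numbl has no star.

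The number of the 8 genes that were called differed from step to step. Between E12.5 and E14 only Sox2 was called, at -0.42 (limma adjusted p = 0.007516), against 4.78% of all genes called lower. Sox9 missed the threshold, at -0.35 (adjusted p = 0.05032), and Notch1 had -0.47 with a larger SE (0.23, adjusted p = 0.223). The count rests on single libraries: Sox2 lost its call when any 1 of the 4 E12.5 and E14 libraries was left out (adjusted p 0.0526 to 0.107), and without either E17 library 4 genes were called, Sox2, Sox9, Pax6 and Notch1. Between E14 and E15.5, 7 genes fell, all but Numbl, where 33.3% of all genes were called lower, and their median change was -0.812 against -0.126 for all genes.

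The step from E14 to E15.5 was also the one at which the summed TPM of 4 lists of marker genes of other tissues were lower by the largest factor. The 3 erythroid genes in the table of 11 looked for (Hbb-y, Hbb-bh1 and Slc4a1) summed to between 1880 and 1975 TPM at E14 and between 9.262 and 9.84 TPM at E15.5. In TPM their sum had dropped by more in the step before, from a mean of 4409 at E12.5 to 1928 at E14. Hbb-y made up most of that sum, with means of 1907 TPM at E14 and 8.47 TPM at E15.5. Slc4a1 fell by a smaller factor in that step, from 2.305 to 0.8026 TPM, and Hbb-bh1 went from 18.27 to 0.2783 TPM. The 2 choroid plexus genes of 10, Ttr and Clic6, went from between 1405 and 1517 TPM to between 3.465 and 4.247 TPM. For the 6 meningeal genes of 10 the range went from 110.4 to 116.7 TPM at E14 to 4.74 to 5.696 TPM at E15.5, and the 2 endothelial and pericyte genes of 13 stood at 12.6% of their E12.5 sum at E15.5, after 78.7% at E14. None of these lists' summed levels reached 0 in any library, while Hbb-bh1 was at 0.0 TPM in both P0 libraries. In the same step the summed markers of postmitotic neurons went from 130% to 236% of E12.5 (15 of 18 genes in the table) and those of proliferation from 69.5% to 30.8% (23 of 26). The part of these other cells in the step of the 7 regulators was not tested.

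Between E15.5 and E17, 5 genes fell (Eomes, Pax6, Msi2, Sox2 and Sox9), where 10.6% of all genes were called lower. Eomes and Pax6 stood at ranks 18 and 82 from the bottom of 6048. With either E15.5 library left out, the count was 2, Eomes and Pax6. Without E17 replicate 1, 7 genes fell and 0 rose, and without E17 replicate 2, 5 fell and 2 rose. Between E17 and P0, 7 genes fell, where 28.8% of all genes were called lower. Eomes, Notch1 and Pax6 stood at ranks 1, 55 and 90, and Sox2 at rank 2342. Without P0 replicate 1 the count was 4 (Eomes, Pax6, Notch1 and Msi1). Without E17 replicate 1, 6 fell and 1 rose, and without E17 replicate 2 all 8 fell.

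The order of levels changed as a result. At E12.5 it ran Msi1, Msi2, Sox2, Eomes, Pax6, Sox9, Numbl and Notch1, and the libraries of the last pair overlapped. At E14 Eomes stood above Sox2, and at E15.5 Numbl stood above Sox9, with no overlap between neighbours at either stage. At E17 Sox2 was again above Eomes, whose libraries overlapped those of Numbl. At P0 the order was Msi1, Msi2, Sox2, Numbl, Sox9, Pax6, Eomes and Notch1. Sox2 and Numbl overlapped there, and the other neighbours did not. Musashi RNAs thus had the highest TPM at each stage, and Eomes went from place 4 to place 7. This order rests on gene lengths that were not given.

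Related genes were then set against each other within each library, as the difference of their log2(TPM + 1) values, in which a scaling of the whole library largely cancels. A replicate difference that goes with transcript length need not cancel between genes of unlike length, and its part here was not tested. The difference over 5 stages was tested with an exact permutation test over all 945 ways to split 10 libraries into 5 pairs, with Benjamini-Hochberg adjustment over the 4 pairs of genes tested. At E12.5, Eomes minus Pax6 was 0.38 ± 0.018 (SD, n = 2). At E14 it was 0.59 ± 0.046, and at E15.5 it peaked with 0.94 ± 0.066. The E17 value was 0.72 ± 0.031 and the P0 value -0.69 ± 0.12. In these TPM, Eomes thus exceeded Pax6 in all 8 embryonic libraries and lay below it in both P0 libraries. Which gene is the higher depends on the gene lengths used, which were not given. The longest annotated transcripts have 3560 bases for Eomes and 4427 for Pax6, while all annotated exon bases come to 4155 and 11694. The same lengths apply at every stage. The exact permutation p was 0.00106, the smallest this design can give (adjusted p = 0.00423). In TPM the ratio went from 1.31 at E12.5 to 0.594 at P0.

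Sox9 minus Sox2 was -1.04 ± 0.014 (SD, n = 2) at E12.5 and -0.97 ± 0.0078 at E14, and it was then -1.57 ± 0.038 at E15.5 and -1.57 ± 0.035 at E17, with a P0 value of -1.75 ± 0.080. The 4 early libraries lay above the 6 later ones with no overlap (exact permutation p = 0.00212, adjusted p = 0.00423), and the TPM ratio of Sox9 to Sox2 went from 0.483 to 0.286. Notch1 minus Notch2 was 0.72 ± 0.022 at E12.5 and 0.29 ± 0.021 at P0 (exact permutation p = 0.00635, adjusted p = 0.00847). The ratio of the receptors in TPM went from 1.68 to 1.3, and Notch1 had the higher TPM of the pair in every library. Msi1 minus Msi2 was 0.41 ± 0.12 at E12.5 and 0.95 ± 0.36 at P0, and the test did not call it (exact permutation p = 0.0857, adjusted p = 0.0857). The P0 replicates of that pair stood far apart, at 1.20 and 0.69. Without P0 replicate 1 the adjusted p was 0.0339, and without P0 replicate 2 it was 0.0349.

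**Figure D3:**
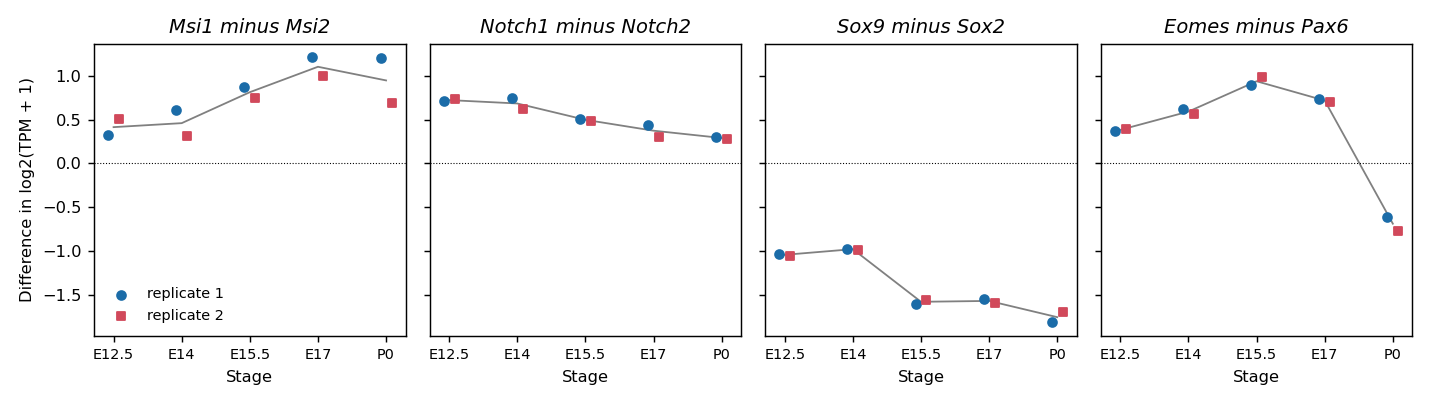
Difference in log2(TPM + 1) between 2 genes of the same library, by stage, with a circle for replicate 1, a square for replicate 2 and a line through the means. Eomes minus Pax6 is above 0 at the 4 embryonic stages and below 0 at P0, and Sox9 minus Sox2 is lower from E15.5 on.

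Of the wider Notch pathway, 70 genes were looked for and 25 are in the table, Notch1 among them. Of the 24 others, 19 fell from E12.5 to P0, 4 rose and 1 was not called, where 51% of all genes tested fell and 27.1% rose. The median log2 change of these 24 was -0.95, against -0.275 for all genes tested. With median-of-ratios scaling, 17 fell, 4 rose and the median was -0.68. Between E14 and E15.5, 13 of the 24 fell and 3 rose, where 33.3% of all genes were called lower and 1113 of 6048 higher. Between E15.5 and E17 the count was 4 lower and 2 higher, against 10.6% and 14.4% of all genes. Between E17 and P0, 13 fell and 11 were not called, where 28.8% of all genes were called lower. The Delta and Jagged ligands were not analysed here.

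Among receptors, Notch2 stood at 21.38 and 23.32 TPM at E12.5, 15.55 and 16.98 at E14, 7.212 and 6.869 at E15.5, 10.77 and 5.641 at E17, and 2.796 and 2.764 at P0. Its libraries had the same shape as those of Notch1, down to the split at E17, and the fall was -2.63 (SE 0.20, limma adjusted p = 2.469e-07). The only ligand-like gene present, Dner, which encodes a neuronal surface protein that binds Notch, rose by 1.67 (SE 0.096, adjusted p = 1.78e-08). Of the 6 genes that glycosylate Notch or attach ubiquitin to it or its ligands, 5 fell, where 51% of all genes tested did. The lowest were Nedd4, a ubiquitin ligase, at -2.30, Pofut1, which adds fucose to the receptor, at -1.78, and Itch, another ligase, at -1.19. Dtx3, a member of the Deltex family, rose by 1.03. Both proteases in the table fell, Ncstn, a subunit of gamma-secretase, by 0.96 and Adam10, which cuts the outer part of the receptor, by 0.93 on the log2 scale.

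Of 10 nuclear partners, 9 fell, where 51% of all genes tested did. The lowest was Rbpj, the DNA-binding partner of cleaved Notch, at -1.55 (SE 0.093, limma adjusted p = 2.841e-08), followed by Ctbp2, a corepressor, at -1.40. The lowest step of Rbpj, -0.77, was the last. Crebbp, a histone acetyltransferase, was not called, at -0.22 (adjusted p = 0.301), a value that became 0.043 with median-of-ratios scaling. The list of Hes, Hey, Id and Groucho family genes had 4 genes in the table, of which 2 fell and 2 rose. Id4, an inhibitor of bHLH factors, had -4.13 (SE 0.090, adjusted p = 2.065e-11) and Tle3 -0.63, against Tle4 at 1.16 and Aes at 0.40. The last 3 belong to the Groucho family.

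**Figure D4:**
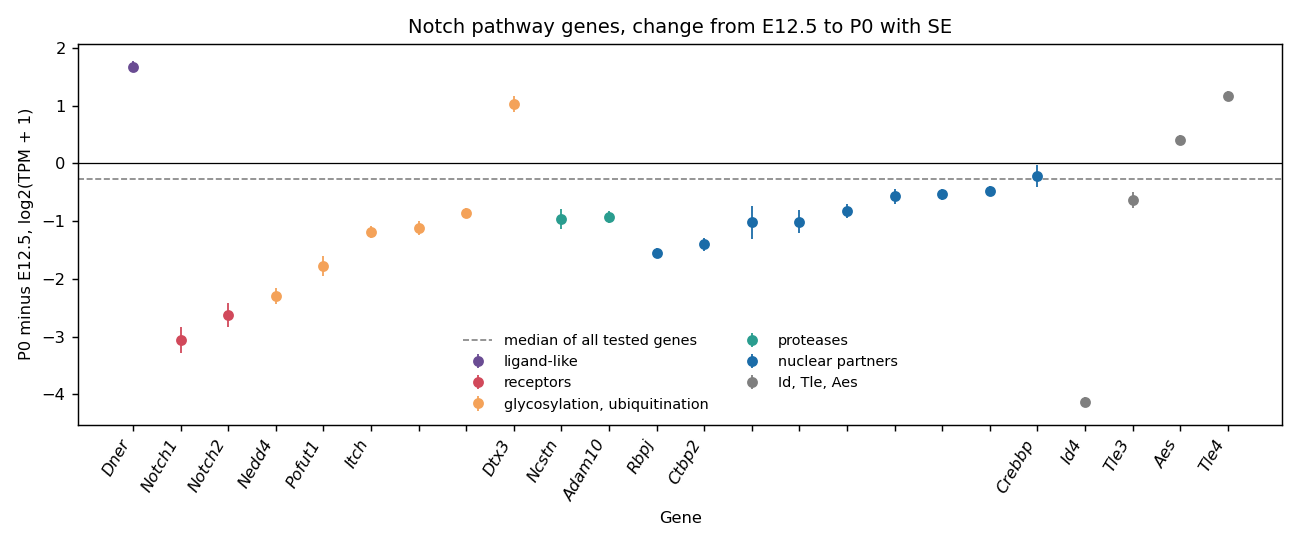
P0 minus E12.5 on the log2(TPM + 1) scale, with the SE from limma, for 24 of the 25 Notch pathway genes in the table, Notch1 included, coloured by role and labelled where the text names them; the dashed line is the median of all genes tested, -0.275. Dner, Dtx3, Aes and Tle4 lie above 0, and Id4, Notch1 and Notch2 are lowest.

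Partners of Numb and Numb-like in endocytosis and cell polarity had no common direction. Of 20 such genes other than Numbl, 10 fell from E12.5 to P0, 9 rose and 1 was not called. Over all genes tested, 51% fell and 27.1% rose, so the share that fell was near that of the whole table. The median log2 change of the 20 was -0.21, against -0.275 for all genes. With median-of-ratios scaling, 9 fell, 10 rose and the median was 0.054. The 3 highest were the polarity kinase Prkcz at 2.55, Gpsm1, a regulator of G proteins, at 1.33, and Ap2s1, a subunit of the clathrin adaptor that Numb proteins bind, at 0.74. The 3 lowest were Gpsm2, which orients the mitotic spindle, at -2.46, the polarity scaffold Pard3 at -2.08 and Llgl1, the relative of a fly tumour suppressor of the basal cortex, at -1.81. Eps15, named after its values were seen, was the one not called, at 0.015 (limma adjusted p = 0.8815).

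Other markers of the cell types of these regulators were set beside them. Of 19 radial glia genes other than the members, 12 fell from E12.5 to P0, 5 rose and 2 were not called, with a median log2 change of -1.98. Over all genes tested, 51% fell and 27.1% rose. Under some alternative settings, among them a pseudocount of 10 TPM, 4 of the 19 rose. The 3 lowest were Hmga2, a chromatin protein of early progenitors, at -7.19, Sox3 at -4.27 and Cdon at -4.03. Those that rose included Tnc, a matrix protein, at 2.24, Pou3f2, a factor also of upper-layer neurons, at 1.01, and Fabp7, a fatty acid binding protein of radial glia, at 0.94. The summed level of the whole radial glia list, members included, was 62.9% of E12.5 at P0. Fabp7 made up much of that sum, its mean going from 730.7 TPM at E12.5 to 1406 at P0, and without it the sum was 35.1% of E12.5 at P0, a split made after its values were seen.

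Of 6 other genes of intermediate progenitors and proneural differentiation, 5 fell from E12.5 to P0, where 51% of all genes tested did. The median change of the 6 was -0.62, and Sox4 was not called, at -0.15 (limma adjusted p = 0.166) or 0.12 with median-of-ratios scaling. The lowest was Insm1, a zinc finger factor of intermediate progenitors, at -1.70 (SE 0.12, adjusted p = 9.865e-08). Like Eomes it had its lowest step after E17, at -1.56 (adjusted p = 8.295e-06), but between E14 and E15.5 it had 0.21 (adjusted p = 0.1595), where Eomes had -0.75. Sox11, a factor also of young neurons, rose by 0.61 after E14 (adjusted p = 0.0008261) and fell by 1.16 after E17 (adjusted p = 2.862e-05). Many genes of this list are also expressed by neurons. The summed proliferation markers stood at 9.7% of E12.5 at P0, and all 23 of them fell, with a median of -3.78.

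**Figure D5:**
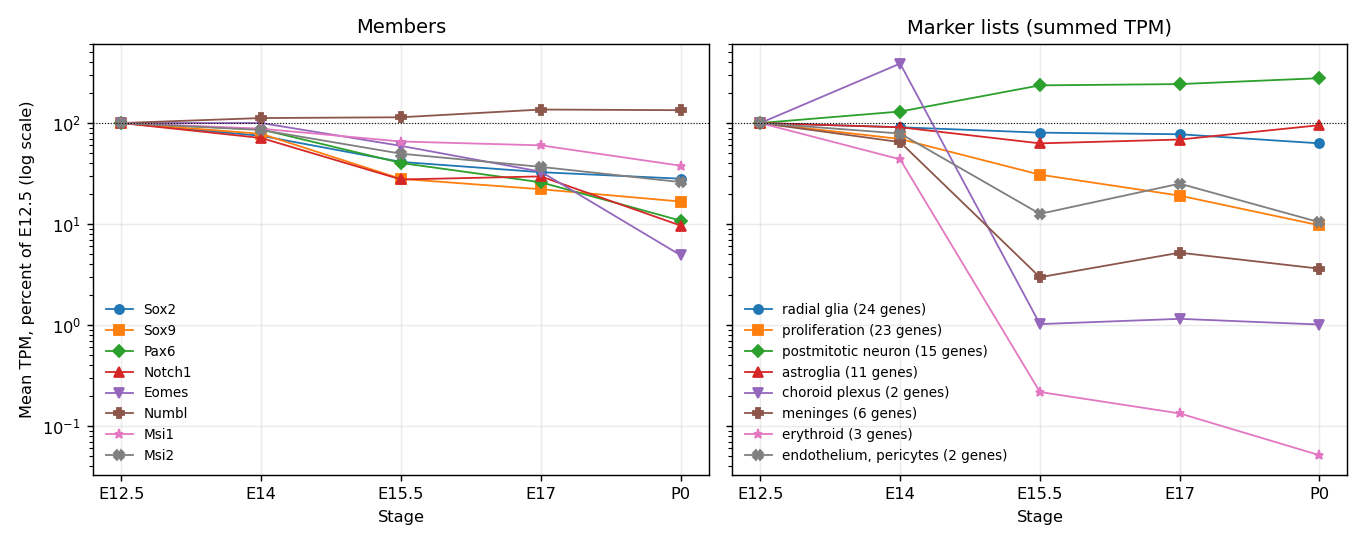
Mean TPM as a percent of the E12.5 mean (log axis) by stage, for the 8 genes on the left and for the summed TPM of marker lists on the right, each line 1 gene or list. The choroid plexus, meningeal and erythroid sums drop between E14 and E15.5, and Eomes drops most between E17 and P0.

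For each regulator, the 2 genes with the most similar profile were taken from 5422 candidates with a mean of at least 10 TPM, by the root mean square distance between log2 profiles centred on their means over 10 libraries. Pearson's r over the same 10 libraries, which share the stages, is given as a description. Msi1 had the nearest neighbours, Homer3 (distance 0.0401, r = 0.997) and Zbed3 (0.0438, r = 0.996). Sox2 was nearest to Rad18 (0.055, r = 0.997) and Rfc1 (0.065, r = 0.998). Numbl had Sh2b1 (0.0739, r = 0.956) and Brd2 (0.0767, r = 0.938), and Msi2 had Haus6 (0.0736, r = 0.996) and Cep76 (0.0939, r = 0.993).
Pax6 was nearest to Ckap2 (0.093, r = 0.997) and Clic1 (0.11, r = 0.996). Notch1 was nearest to Cachd1 (0.102, r = 0.996) and Efnb1 (0.132, r = 0.993), and Sox9 to Dsn1 (0.109, r = 0.994) and Hat1 (0.124, r = 0.993). By this distance the nearest genes of Eomes were further away than those of the other 7: Celsr1, at 0.389 (r = 0.969), and Cks2, at 0.418 (r = 0.966). The distance is not scaled to the size of a gene's change, which was largest for Eomes. By r, the neighbours of Numbl were the least similar.

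On GRCm38, with the positions of GENCODE release M21, the 8 genes lie on 6 autosomes and all are protein-coding. Notch1 (chr2:26457903-26516663, minus strand) and Pax6 (chr2:105668900-105697364, plus strand) share a chromosome, as do Msi2 (chr11:88339382-88718513, minus strand) and Sox9 (chr11:112782224-112787760, plus strand). Sox2 (chr3:34650405-34652461, plus strand) is annotated with 1 transcript and lies within Sox2ot on the same strand, with 0 shared exon bases. Msi1 is at chr5:115429599-115455698, Numbl at chr7:27258433-27282144 and Eomes at chr9:118478212-118486132, all on the plus strand. The longest annotated transcripts of Notch1 (9488 bases) and Numbl (8511 bases) are longer than those of 96.0% and 93.8% of genes tested, and these 2 genes had the largest log2 gaps between the E17 replicates, 0.96 and 0.59, against 0.095 for Sox2, whose transcript has 2057 bases. The order did not hold for the Musashi genes: Msi2, with 6436 bases, had a gap of 0.267, and Msi1, with 3133 bases, one of 0.486. The part of transcript length in the E17 values was not tested.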

How the data were processed

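Per the labels' protocols, tissue was lysed, the lysate was spun, and RNA from it went into stranded polyA-selected libraries. Per the submitters' processing notes, the tools were STAR and Subread and the build GRCm38.p5; versions, gene lengths and the choice of rows were not given in the sources used here. The authors deposited a table of TPM with a column for each library. TPM keep no read depth, so precision rests on the spread between the 2 libraries of a stage.

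Values were analysed as log2(TPM + 1), for the 6048 genes that averaged 1 TPM or more over 10 libraries (99 left out), with limma 3.58.1 in R 4.3.3. One fit with 1 mean per stage and a variance trend (5 residual degrees of freedom) gave the 4 steps, P0 against E12.5 and an F test over stages, with Benjamini-Hochberg adjustment over all genes and calls under 0.05. The median SE of P0 minus E12.5 was 0.107. Fold changes on this scale understate those of low genes. Differences between related genes within a library used the exact permutation test described in the text.

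Members, gene lists, motifs and pairs of genes were chosen with earlier results of these data known. Named genes are the members, up to 3 genes with the highest and 3 with the lowest change from E12.5 to P0 in each list, the 2 nearest profiles per member (without Gm, LOC and Rik names), and exceptions stated as such; a few genes that this rule names are not reported here. Stages came from the labels, which give no batch, litter or sex. The test scripts were tried on simulated data. Positions and transcript lengths came from GENCODE release M21 and promoters from RefSeq, with Python 3.11.15, pandas 2.3.3, numpy 2.4.6, scipy 1.17.1 and matplotlib 3.10.9.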

Additional observations from a re-analysis of the deposited data

How the results depend on the processing

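The falls of the 7 regulators from E12.5 to P0 kept their call under all 20 alternatives: pseudocounts of 0.1 and 10 TPM, no filter, a minimum mean of 5 TPM, median-of-ratios scaling, quantile normalization, no variance trend, array weights, the replicate block, each library left out in turn and, chosen after seeing the data, both E17 libraries left out. Counts moved more, and the cause was not tested. Over all genes, 528 were called between E12.5 and E14, against 901 with quantile normalization, 2411 with array weights, 1774 without both E17 libraries and 65 to 1770 when 1 library was left out. Of the members, 1 was called there, against 2 with a pseudocount of 10 TPM, with median-of-ratios scaling and with quantile normalization, 6 with array weights, 4 without both E17 libraries and 0 to 4 when 1 library was left out. Between E15.5 and E17, 1514 genes were called, 758 with array weights and 466 to 3164 when 1 library was left out (lowest without E15.5 replicate 1, highest without E17 replicate 2); of the members, 5 were called, 2 with array weights and 2 to 7 when 1 library was left out. Between E17 and P0, 2525 genes were called, 1145 with array weights and 1640 (without P0 replicate 1) to 3768 when 1 library was left out, and members ran from 4 to 8.

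Signs turned only for values near 0 or resting on 1 library. With 1 library left out, Eomes, E14 minus E12.5, ran from -0.036 to 0.0363. Notch1, E17 minus E15.5, was -0.037 with quantile normalization and ran from -0.467 to 0.494 as 1 library was left out. Numbl and Msi1 in that step ran likewise from -0.0743 to 0.511 and from -0.389 to 0.0976. Numbl, P0 minus E17, was -0.00232 with a pseudocount of 10 TPM and ran from -0.292 to 0.294 as 1 library was left out. Median-of-ratios scaling moved the split of higher and lower calls from 239 and 289 to 432 and 304 for E14 against E12.5, from 1113 and 2015 to 1573 and 1558 for E15.5 against E14, from 781 and 1744 to 1287 and 1370 for P0 against E17, and from 1641 and 3087 to 2293 and 2282 for P0 against E12.5. The test of Msi1 minus Msi2 over 5 stages made no call with all libraries (P0 minus E12.5 of 0.53) but did without P0 replicate 1 (0.28) and without P0 replicate 2 (0.79); the other 3 pairs of genes kept their calls. Pairs with Numb or Notch3 were planned and not run. Replicate numbers did not pair the libraries (correlation of same-numbered deviations -0.375 to 0.107 over 10 pairs of stages); with the replicate block 462 genes were called between E12.5 and E14 and 4676 between E12.5 and P0, and among the members' calls only Sox2, P0 minus E17, was lost (adjusted p = 0.0631 by limma).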

Other observations

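Sox9 is also a marker of astroglia, and most other astroglial genes moved the other way. Of 16 such genes looked for, 11 are in the table, Sox9 among them. From E12.5 to P0, 8 of these rose, Gfap included, and 3 fell, against 27.1% and 51% of all genes tested. The median log2 change was 0.60. With a pseudocount of 10 TPM, with no variance trend or with the replicate block, 7 rose. The count was also lower when any 1 library of E12.5, E14, E15.5 or P0 was left out. Gfap, the filament protein of astrocytes, had 4.58 (SE 0.11), with its largest step, 3.26, after E17, where it rose from 1.79 and 1.98 TPM to 27.71 and 25.49 TPM. It passed the filter on low values only through these P0 libraries. Its rise to P0, which enters the count of 8 and the median, is therefore given as a description. Earlier steps of 0.70 after E14 (limma adjusted p = 0.0003736) and 0.43 after E15.5 (adjusted p = 0.01927) were called. The Gfap means there were low, 0.3197 TPM at E14, 1.139 at E15.5 and 1.885 at E17, near the 1 TPM added before taking logs. Aldh1l1, an enzyme of folate metabolism used to mark astrocytes, had 3.55 and Sparcl1, a secreted matrix protein, 1.88. The 3 that fell were Fgfr3, a growth factor receptor also of early progenitors, at -3.45, Sox9 at -2.52 and Aldoc, a glycolytic enzyme, at -1.09. The summed TPM of the list, Sox9 included, stood at 62.9% of E12.5 at E15.5 and at 95.2% at P0. Its genes differed in that first span: Aldoc went from a mean of 270.8 to 144.1 TPM and Fgfr3 from 112.1 to 18.59 TPM, while Glul went from 152.5 to 167.7 TPM and Sparcl1 from 27.89 to 34.42 TPM.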
